A study of Bos taurus with 12 samples.

Results

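The ADAM and ADAMTS genes encode metalloproteases that share a zinc-binding protease fold and a disintegrin-type domain, and 42 of the 18087 genes named on the array belong to them. They were chosen by name: a probe set (the group of probes that reports on a gene) counted if the array annotation gave it a single symbol made of ADAM, ADAMTS or ADAMTSL and a number, or ADAMDEC1. This took 43 probe sets, of which ADAMTSL1 had 2, and the probe set with the highest mean over the 12 arrays stood for its gene. The 42 genes were 19 ADAMTS, 4 ADAMTSL, 18 ADAM and ADAMDEC1. Another 2 probe sets, annotated to several genes each, were left out.

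ADAMs are mostly anchored in the cell membrane, where the active members cut off ("shed") the outer part of growth factor precursors, cytokine receptors and adhesion molecules, and where several other members have lost the catalytic site and act in adhesion or sperm function. ADAMTS proteases are secreted, carry thrombospondin repeats that hold them in the matrix, and trim or degrade matrix proteins. In cartilage the aggrecanases among them cleave aggrecan, the proteoglycan that gives the tissue its resistance to compression. ADAMTS-like proteins keep the thrombospondin repeats but lack the protease domain, and several bind fibrillin microfibrils.

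The cells were mesenchymal stem cells from the bone marrow of cattle under 6 months of age, taken from 3 donors, and total RNA was hybridised to 1 whole-transcript array per donor and condition. The 4 conditions, each held for 1 week, were TGF-β3 at 10 ng/mL in hypoxia (2% oxygen), TGF-β3 at 10 ng/mL in normoxia (21% oxygen), hypoxia without TGF-β3, and normoxia without TGF-β3. All 4 groups had first been grown for 1 passage at 21% oxygen, in a high-glucose medium with serum, so the hypoxic cells too came out of normoxia. Each group thus held 3 arrays, 1 from each of the same 3 donors, and the comparisons ask how each protease gene responded to the growth factor, to low oxygen and to their combination.

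Values are log2 signals, so a difference of 1 is a doubling. The number of arrays limits the precision, and no detection call per probe set was used, so signal above background was not tested. Signals of different probe sets depend on their probes and are not set against each other as amounts of RNA. The first quartile of an array lay between 4.89 and 4.98 and its median between 6.59 and 6.66. All 8 stromal marker genes examined were above the array median on every array. With TGF-β3 averaged over oxygen 5 of them fell, beside 4.99% of all probe sets. Of 9 haematopoietic markers none was called for any change averaged over the other factor. CD14 (6.63 to 7.43) and CD68 (6.84 to 7.68) lay above the array median on every array. Another 2 lay below the first quartile on every array, among them PTPRC, the pan-leukocyte marker (4.06 to 4.48). The part of haematopoietic cells in the results was not tested. Among 7 endothelial markers only PECAM1 was called, with an increase of 2.12 ± 0.17 (log2, standard error) with TGF-β3. The mean of that list was 5.46 to 5.64 on arrays with TGF-β3 and 5.24 to 5.40 on arrays without it, CDH5 and KDR were not called, and the part of these cells in the results was not tested. In bulk RNA, fewer cells of a type and less RNA per cell cannot be told apart. The response gene PMEPA1 rose by 1.90 ± 0.092 and SKIL by 1.23 ± 0.089 with TGF-β3.

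Of the 42 genes, 16 lay above the array median on all 12 arrays, 10 lay below the first quartile on all 12, and 16 fell between. Those below the first quartile throughout were ADAM2, ADAM18, ADAM21, ADAM22, ADAM23, ADAM29, ADAM32, ADAM1B, ADAM3A and ADAMTS19, most of which are known in mammals from sperm or nervous tissue. None of these 10 was called for TGF-β3, against 8 of the 16 genes above the median throughout and 2 of the 16 between. Over all probe sets the share called also differed by signal, with 0.825% of those below the first quartile throughout, 16.4% of those above the median throughout and 6.02% of those between.

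**Figure D1:**
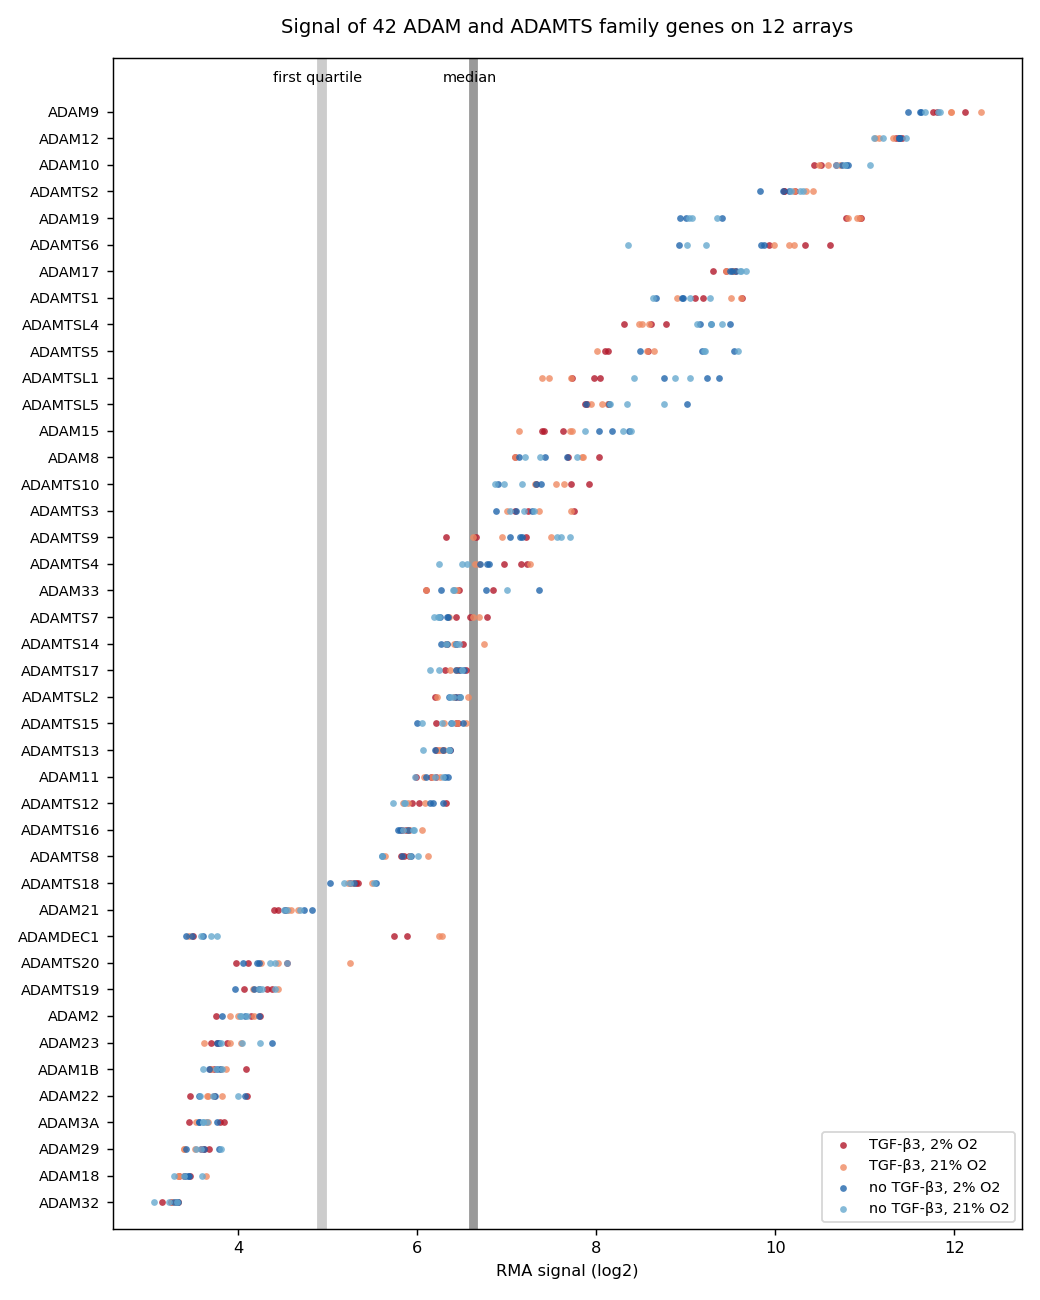
Signal (log2, horizontal axis) of each of the 42 genes on the 12 arrays, 1 point per array, coloured by group, with the range of the 12 first quartiles and medians as grey bands. The points of ADAM19, ADAMTSL1 and ADAMTSL4 separate by TGF-β3, and those of ADAMDEC1 split into 4 arrays above the first quartile and 8 below it.

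TGF-β3 changed 10 of the 42 genes when its effect was averaged over both oxygen tensions: ADAM19, ADAMTS6, ADAMTS10, ADAMTS4, ADAM9 and ADAMTS7 rose, and ADAMTSL1, ADAMTS5, ADAMTSL4 and ADAM15 fell. The test was limma on all 12 arrays with p-values adjusted over all 26773 probe sets, and a gene was called at an adjusted p under 0.05. The 10 genes are 23.8% of the family, beside 9.64% of all probe sets called in the same comparison. The 6 that rose are 14.3% of the family, beside 4.65% of all probe sets, and the 4 that fell are 9.52%, beside 4.99%. With donor as a block, a fit that compares conditions within each donor, 14 genes were called (33.3%, beside 14.8% of all probe sets), and the additional genes were ADAMTS1, ADAMTS9, ADAM10 and ADAMDEC1. All fits that left out an array or a donor were run without this block. Calls lost in them therefore refer to the fit that ignores the pairing by donor. The median change over the 42 genes was 0.016 and that over all probe sets 0.0085, while the median size of the change, without its sign, was 0.12 in the family and 0.098 over all probe sets.

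At each oxygen tension on its own fewer genes passed. In normoxia 4 genes were called (beside 2.75% of all probe sets). ADAM19 and ADAMTS6 rose (1.28% of all probe sets did) and ADAMTSL1 and ADAMTSL4 fell (1.47% of all probe sets did). In hypoxia 3 were called (beside 3.05% of all probe sets). ADAM19 rose (1.45% of all probe sets did) and ADAMTSL1 and ADAMTSL4 fell (1.61% of all probe sets did). With the donor block 6 genes were called at 21% oxygen (6.35% of all probe sets) and 6 at 2% oxygen (6.98%), since ADAM15 and ADAMTS10 passed at both tensions and ADAMTS6 also at 2%. The change had the same sign at both tensions in 32 of the 42 genes, and across the 42 genes the changes at 2% and 21% oxygen correlated with Pearson's r of 0.97 and Spearman's rho of 0.86. The 2 sets of changes share no array but come from the same 3 donors, and genes are not independent replicates.

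**Figure D2:**
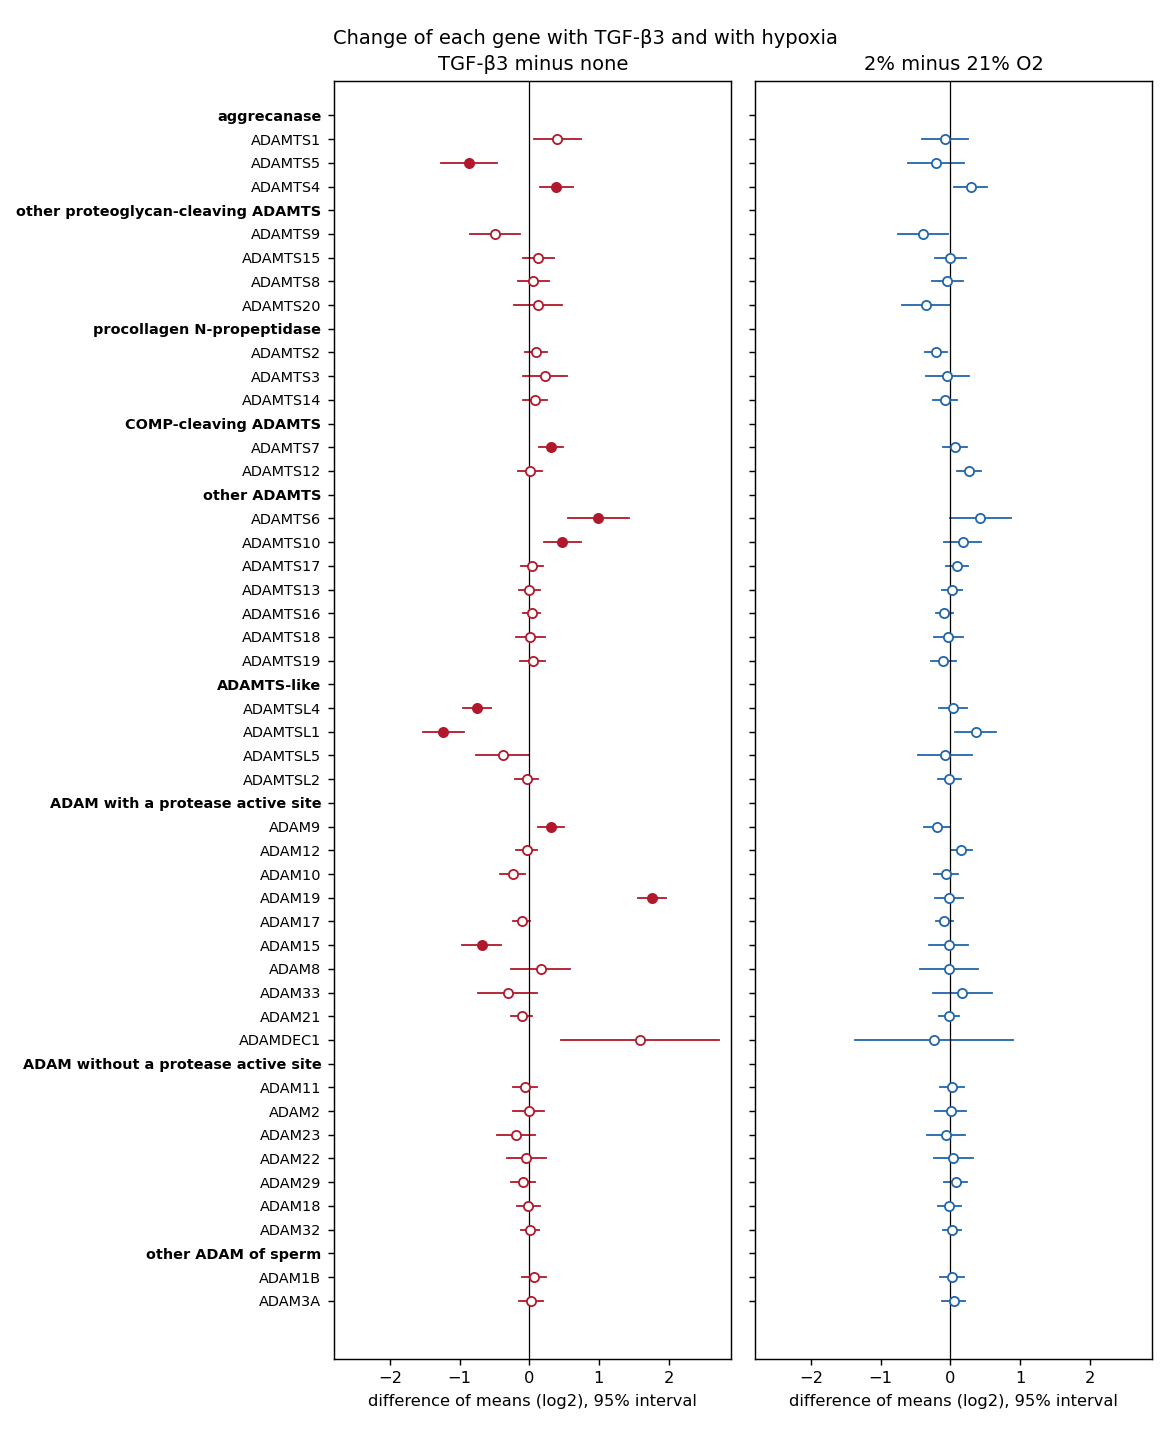
Change of each gene (difference of group means, log2, with its 95% interval) with TGF-β3 averaged over oxygen on the left and with hypoxia averaged over TGF-β3 on the right, grouped by role; filled points are called at an adjusted p under 0.05. On the left 6 filled points lie above 0 and 4 below it, and on the right no point is filled.

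The aggrecanases moved in opposite directions. ADAMTS5, with ADAMTS4 one of the main aggrecanases of cartilage, fell with TGF-β3, ADAMTS4 rose, and ADAMTS1, a broader proteoglycan-cleaving protease that also binds VEGF, passed only with the donor block. In hypoxia ADAMTS5 had 8.13, 8.10 and 8.57 in donors 1, 2 and 3 with TGF-β3, against 9.18, 9.53 and 8.49 without it. In normoxia its signals were 8.003, 8.64 and 8.57 with TGF-β3, against 9.21, 9.58 and 9.20 without. Donors 1 and 2 were lower with TGF-β3 at both tensions and donor 3 was lower in normoxia, while in hypoxia donor 3 was 0.087 higher with TGF-β3, and its array without TGF-β3 lay inside the range of the treated arrays. Averaged over oxygen, ADAMTS5 fell by 0.86 ± 0.18, or 1.82-fold, with an adjusted p of 0.0122 and a 95% interval of -1.27 to -0.46. The call was lost without donor 1 (-0.73, adjusted p = 0.177) or without donor 2 (-0.70, adjusted p = 0.140), and it was kept without donor 3 (-1.16, adjusted p = 0.00825). Neither tension alone passed, with -0.80 ± 0.26 in hypoxia (adjusted p = 0.138) and -0.93 ± 0.26 in normoxia (adjusted p = 0.0922).

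ADAMTS4 had 6.97, 7.15 and 7.22 in hypoxia with TGF-β3, against 6.80, 6.78 and 6.70 in hypoxia without it. The normoxic signals were 6.69, 6.64 and 7.25 with TGF-β3 and 6.50, 6.56 and 6.24 without. Every donor was higher with TGF-β3 at each tension, but the treated normoxic arrays of donors 1 and 2 lay within the range of the untreated arrays. The averaged change was 0.39 ± 0.11 (adjusted p = 0.0444), and it was 0.77 in donor 3 against 0.18 and 0.23 in donors 1 and 2. Without donor 3 it was 0.20 (adjusted p = 0.181). The call held on leaving out any 1 of the 3 normoxic arrays with TGF-β3 and was lost on leaving out any 1 of the other 9 arrays, or any donor, with an adjusted p of 0.0546 to 0.181 where it was lost.

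ADAMTS1 signals were 9.10, 9.62 and 9.19 in hypoxia with TGF-β3, against 8.67, 8.96 and 8.97 in hypoxia without. In normoxia they were 8.90, 9.62 and 9.51 with TGF-β3, against 8.64, 9.05 and 9.27 without. The groups overlapped, and donor 1 was the lowest donor in every group. The averaged change of 0.40 ± 0.15 had an adjusted p of 0.140, and of 0.0162 with the donor block, with 0.35, 0.62 and 0.23 in donors 1, 2 and 3. ADAMTS1 and ADAMTS5 are direct neighbours on bovine chromosome 1 in the RefSeq gene order, and their averaged changes had opposite signs.

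**Figure D3:**
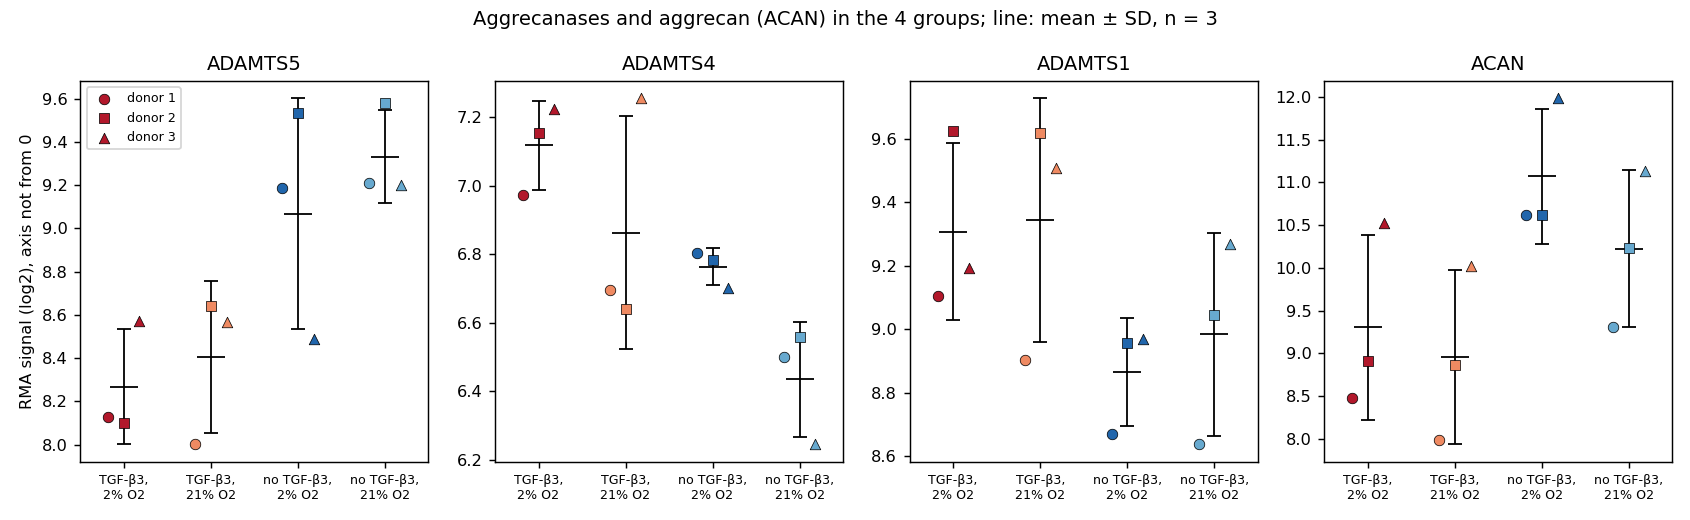
Signal (log2; the axis does not start at 0) of ADAMTS5, ADAMTS4, ADAMTS1 and the proteoglycan gene ACAN in the 4 groups, with 1 symbol per donor and the mean ± SD of 3 arrays as lines. ADAMTS5 and ACAN average lower in both groups with TGF-β3, and ADAMTS4 and ADAMTS1 average higher.

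Oxygen left no call on the aggrecanases. ADAMTS4 averaged 0.29 ± 0.11 higher in hypoxia (adjusted p = 0.635; 95% interval 0.053 to 0.53), with 0.29, 0.37 and 0.21 in donors 1, 2 and 3. ADAMTS5 differed by -0.20 ± 0.18 (adjusted p = 0.904) and ADAMTS1 by -0.077 ± 0.15 (adjusted p = 0.966). By condition, hypoxia with TGF-β3 differed from normoxia with TGF-β3 by 0.25 in ADAMTS4, -0.14 in ADAMTS5 and -0.036 in ADAMTS1, all with an adjusted p of 0.9997. Without TGF-β3 the hypoxia differences were 0.33 in ADAMTS4 (adjusted p = 0.925), -0.26 in ADAMTS5 and -0.12 in ADAMTS1 (adjusted p = 0.9993 for both). The interaction, the TGF-β3 change in hypoxia minus that in normoxia, was -0.074 ± 0.22 in ADAMTS4, 0.12 ± 0.37 in ADAMTS5 and 0.082 ± 0.31 in ADAMTS1 (adjusted p = 0.9999 for each). Leaving out single arrays or donors turned the sign of the averaged value of ADAMTS1, of the values by condition of ADAMTS5 and ADAMTS1, and of the interaction of all 3 genes. The averaged value of ADAMTS5 kept its sign, from -0.32 to -0.055.

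The matrix on which these enzymes act was measured on the same arrays. Of 12 genes for proteoglycans, link proteins and other known ADAMTS substrates, 1 rose and 3 fell with TGF-β3 averaged over oxygen, and 2 and 5 with the donor block. Their median change was -0.13, beside 0.0085 over all probe sets. Of all probe sets 4.65% rose and 4.99% fell, and 14.8% were called in either direction with the donor block. HAPLN1, the link protein that fixes aggrecan to hyaluronan, fell by 1.51 ± 0.36 (adjusted p = 0.0229). DCN, the small proteoglycan decorin, fell by 0.94 ± 0.13 (adjusted p = 0.000917) and LUM (lumican) by 0.22 ± 0.060 (adjusted p = 0.0434), while MATN3, a cartilage matrilin, rose by 0.69 ± 0.19 (adjusted p = 0.0425). ACAN itself, the substrate of the aggrecanases, had 8.47, 8.91 and 10.53 in hypoxia with TGF-β3, against 10.62, 10.62 and 11.98 in hypoxia without. In normoxia ACAN had 7.99, 8.86 and 10.02 with TGF-β3, against 9.31, 10.23 and 11.14 without. It was lower with TGF-β3 in every donor at both tensions, by 1.52 ± 0.47 on average (adjusted p = 0.0695, and 6.86e-05 with the donor block), and donor 3 was the highest donor in every group. The calls of HAPLN1, MATN3 and LUM were lost on leaving out any of several single arrays, in fits without the donor block. All of them were also lost without donor 1 or donor 2. That of LUM was lost without donor 3 too, and with all arrays kept when array medians were made equal. That of DCN was lost only without donor 2 (adjusted p = 0.0522). Over all alternatives the adjusted p ranged from 8.57e-05 to 0.216 in HAPLN1, from 0.00233 to 0.328 in MATN3 and from 0.0113 to 0.347 in LUM.

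The other proteoglycan-cleaving proteases were not called without the donor block. ADAMTS9, a versican-cleaving protease, had 6.66, 7.22 and 6.32 in hypoxia with TGF-β3, against 7.17, 7.15 and 7.04 in hypoxia without. Its normoxic signals were 6.94, 7.50 and 6.62 with TGF-β3 and 7.70, 7.56 and 7.60 without. Donors 1 and 3 were lower with TGF-β3 at both tensions, and donor 2 differed by -0.067 in normoxia and 0.069 in hypoxia. The averaged change was -0.50 ± 0.16 (adjusted p = 0.0858, and 0.0290 with the donor block). Without donor 2 it was -0.75 (adjusted p = 0.0302) and without donor 3 it was -0.32 (adjusted p = 0.352). VCAN, the versican gene, differed by -0.36 ± 0.17 (adjusted p = 0.266, and 0.00672 with the donor block). ADAMTS8, ADAMTS15 and ADAMTS20 had averaged changes of 0.06 to 0.13 and were not called, and ADAMTS8 and ADAMTS15 are direct neighbours on chromosome 29.

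The procollagen N-propeptidases remove the amino-terminal extension of fibrillar procollagens before fibrils form. None of the 3 was called. ADAMTS2, the main enzyme for type I procollagen, had 10.09, 10.22 and 10.09 in hypoxia with TGF-β3, 10.35, 10.42 and 10.20 in normoxia with TGF-β3, 10.15, 10.08 and 9.83 in hypoxia without and 10.30, 10.27 and 10.17 in normoxia without. Each donor was a little lower in hypoxia at either TGF-β3 setting, by 0.21 ± 0.071 on average (adjusted p = 0.562, 95% interval -0.36 to -0.051). With TGF-β3 the change was 0.094 ± 0.071 (adjusted p = 0.518). ADAMTS3 and ADAMTS14 differed by 0.23 ± 0.14 and 0.083 ± 0.079 with TGF-β3. Of 13 procollagen and procollagen-processing genes, 1 rose and 2 fell with TGF-β3, with a median change of -0.042. Over all probe sets 4.65% rose and 4.99% fell. BMP1, the protease that removes the carboxy-terminal propeptide, rose by 0.41 ± 0.087 (adjusted p = 0.0122), COL3A1 fell by 0.77 ± 0.12 (adjusted p = 0.00286), and PCOLCE2, an enhancer of BMP1, fell by 1.08 ± 0.27 (adjusted p = 0.0287). Leaving out single donors ended each of these calls, without donor 1 for all of them and also without donor 2 for BMP1 and PCOLCE2, and single arrays ended that of PCOLCE2. Over all alternatives the adjusted p ranged from 0.000967 to 0.0582 for COL3A1, from 0.0016 to 0.197 for BMP1 and from 0.000124 to 0.222 for PCOLCE2.

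ADAMTS7 and ADAMTS12 degrade COMP, a structural protein of cartilage and tendon. ADAMTS7 rose by 0.31 ± 0.077 with TGF-β3 (adjusted p = 0.0261). It had 6.59, 6.44 and 6.78 in hypoxia with TGF-β3, against 6.26, 6.34 and 6.34 in hypoxia without. In normoxia it had 6.69, 6.35 and 6.62 with TGF-β3, against 6.24, 6.24 and 6.19 without. The 6 treated arrays all lay above the 6 untreated ones, with the lowest treated at 6.35 and the highest untreated at 6.34, and donor 2 changed least (0.11, against 0.39 and 0.44 in donors 1 and 3). The call was lost without any 1 of 7 arrays and without any donor, with adjusted p from 0.0534 to 0.252. These arrays were donors 1 and 3 in normoxia with TGF-β3 and in hypoxia with TGF-β3, donors 2 and 3 in normoxia without it, and donor 1 in hypoxia without it. ADAMTS12 differed by 0.0091 ± 0.078 with TGF-β3 (adjusted p = 0.970). It had the smallest unadjusted p of the family for oxygen, and its hypoxia difference of 0.27 ± 0.078 (adjusted p = 0.430) was positive in all 3 donors.

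Of the 7 other ADAMTS genes, 5 were not called with TGF-β3, with changes of 0.0025 to 0.053. ADAMTS6 and ADAMTS10 rose, beside 4.65% of all probe sets. Both are known for roles at fibrillin microfibrils and cell adhesions. ADAMTS6 had 10.33, 10.61 and 9.92 in hypoxia with TGF-β3, against 9.84, 9.88 and 8.93 in hypoxia without. In normoxia the signals were 9.98, 10.21 and 10.15 with TGF-β3, against 9.22, 9.02 and 8.35 without. All 6 arrays with TGF-β3 lay above all 6 without it, although the lowest treated array (9.92) was only just above the highest untreated one (9.88), both of them hypoxic. The averaged increase was 0.99 ± 0.20, or 1.99-fold (adjusted p = 0.00942), and the donors changed by 0.62, 0.96 and 1.40. It was lost without donor 1 (1.18, adjusted p = 0.0707) or donor 2 (1.01, adjusted p = 0.110) and kept without donor 3 (0.79, adjusted p = 0.00528) and without any single array.

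By tension, ADAMTS6 changed by 0.74 ± 0.28 in hypoxia (adjusted p = 0.223, and 0.0499 with the donor block) and by 1.25 ± 0.28 in normoxia (adjusted p = 0.0402). The normoxic call was lost without any 1 of 7 arrays or without donor 1 or 2, with an adjusted p up to 0.302. These arrays were all 3 in normoxia with TGF-β3, donors 2 and 3 in normoxia without it, and donor 1 in hypoxia with and without it. The difference between the tensions, -0.51, was the largest interaction in size in the family and was not called (adjusted p = 0.9999). Without TGF-β3, ADAMTS6 was 0.68 ± 0.28 higher in hypoxia (adjusted p = 0.922), in all 3 donors. Both values moved with single arrays: without donor 3 in hypoxia without TGF-β3 the change at 2% oxygen was 0.42 and the hypoxia difference 0.996, and without donor 3 in normoxia without TGF-β3 the hypoxia difference was 0.43.

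ADAMTS10 had 7.71, 7.92 and 7.32 in hypoxia with TGF-β3, against 7.38, 7.32 and 6.91 in hypoxia without. The normoxic arrays gave 7.55, 7.64 and 7.32 with TGF-β3 and 6.96, 7.17 and 6.87 without. Within each donor the treated array was higher at both tensions, while across donors the groups overlapped, with donor 3 lowest in each. The increase was 0.48 ± 0.12 (adjusted p = 0.0304, and 0.00118 with the donor block), and the donors were close to each other with 0.46, 0.53 and 0.43. Without the block the call was lost without any 1 of 7 arrays and without donor 1 or 2, with adjusted p from 0.0590 to 0.215. These arrays were donors 1 and 2 with TGF-β3 at each tension, donors 1 and 3 in normoxia without it, and donor 3 in hypoxia without it.

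Of the 4 ADAMTS-like genes measured, 2 fell with TGF-β3, beside 4.99% of all probe sets. The change was negative in all 4, but ADAMTSL5 and ADAMTSL2 were not called. ADAMTSL1, a secreted matrix protein also named punctin, had 7.73, 7.98 and 8.04 in hypoxia with TGF-β3, against 9.23, 9.37 and 8.76 in hypoxia without. In normoxia it had 7.40, 7.47 and 7.72 with TGF-β3, against 8.88, 9.05 and 8.42 without. The 6 arrays with TGF-β3 lay below the 6 without it. It fell by 1.23 ± 0.13, or 2.35-fold (adjusted p = 0.000245), with -1.49 in each of donors 1 and 2 and -0.71 in donor 3. The averaged call held under every alternative tried, single tensions lost it without donor 1 or 2, and the test of a difference between donors gave an adjusted p of 0.0972.

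A second probe set of ADAMTSL1, examined after its values were seen, showed a smaller change in the same direction. It had 7.25, 7.26 and 7.27 in hypoxia with TGF-β3, against 7.68, 8.13 and 7.56 in hypoxia without. In normoxia the signals were 7.04, 7.03 and 7.08 with TGF-β3, against 7.77, 7.89 and 7.46 without, so that here too the 6 treated arrays lay below the 6 untreated ones. It fell by 0.59 averaged over oxygen (adjusted p = 0.00409) and by 0.65 in normoxia (adjusted p = 0.0377), while in hypoxia it changed by -0.53 (adjusted p = 0.0771, and 0.0367 with the donor block).

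ADAMTSL4, which binds fibrillin-1 and is needed for the fibres that hold the eye lens, had 8.31, 8.61 and 8.77 in hypoxia with TGF-β3, against 9.28, 9.49 and 9.16 in hypoxia without. The normoxic arrays gave 8.47, 8.58 and 8.51 with TGF-β3 and 9.12, 9.28 and 9.40 without. No array with TGF-β3 reached an array without it. The fall was 0.75 ± 0.091, or 1.68-fold (adjusted p = 0.000511), with -0.81, -0.79 and -0.64 in donors 1, 2 and 3, and the averaged call held under every alternative. In normoxia alone (-0.75, adjusted p = 0.0113) it was lost without donor 2 or donor 3 of the untreated normoxic arrays and without any whole donor, with an adjusted p up to 0.201. In hypoxia alone (-0.75, adjusted p = 0.0106) it was lost without donor 1 or 2, and when only the 2 groups compared were fitted. ADAMTSL5 differed by -0.38 ± 0.17 (adjusted p = 0.229), and ADAMTSL2 by -0.039 ± 0.074.

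**Figure D4:**
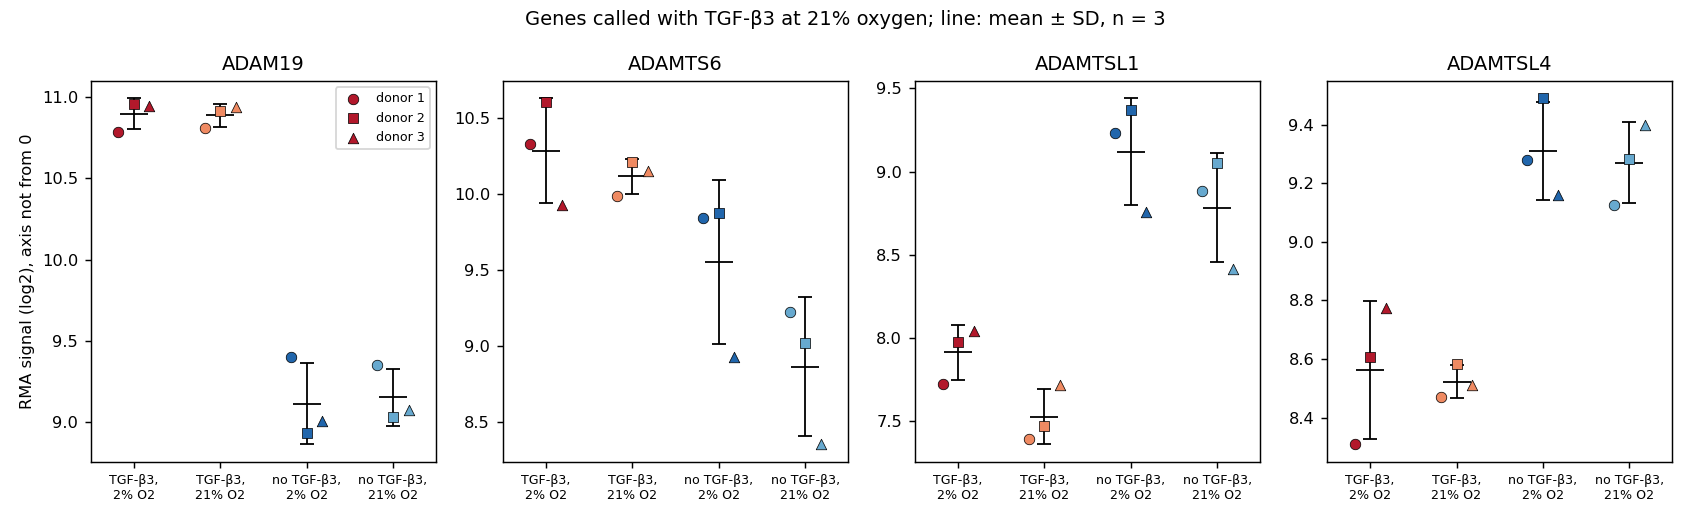
Signal (log2; the axis does not start at 0) of ADAM19, ADAMTS6, ADAMTSL1 and ADAMTSL4, the genes called with TGF-β3 in normoxia, in the 4 groups, with 1 symbol per donor and the mean ± SD of 3 arrays as lines. ADAM19 and ADAMTS6 are higher and ADAMTSL1 and ADAMTSL4 lower on all 6 arrays with TGF-β3 than on all 6 without it.

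Genes of the fibrillin microfibril, the scaffold that ADAMTS6, ADAMTS10 and several ADAMTS-like proteins act on, moved both ways. Of 15 measured, 3 rose and 4 fell with TGF-β3, and 4 and 6 with the donor block, with a median change of -0.018. Among all probe sets 4.65% rose and 4.99% fell, and 14.8% were called in either direction with the block. FBN1, fibrillin-1, fell by 0.50 ± 0.070 (adjusted p = 0.00115) and LTBP2, a latent TGF-β binding protein family member, by 0.53 ± 0.075 (adjusted p = 0.00132). LTBP1, which tethers latent TGF-β to the matrix, rose by 0.79 ± 0.095 (adjusted p = 0.000459), and FBLN5, an elastic fibre assembly protein, rose by 1.20 ± 0.20 (adjusted p = 0.00326). The calls of LTBP1 and FBN1 held under every alternative, while LTBP2 lost its call without donor 2 (adjusted p = 0.0700) and FBLN5 without donor 1 or 2 (adjusted p up to 0.0844).

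Of the 10 ADAM genes with a protease active site, ADAMDEC1 included, ADAM19 and ADAM9 rose and ADAM15 fell with TGF-β3. Among all probe sets 4.65% rose and 4.99% fell. ADAM19, also named meltrin-β and known for cutting neuregulin precursors, was the gene of the family with the largest called change. It had 10.79, 10.96 and 10.95 in hypoxia with TGF-β3, against 9.40, 8.93 and 9.00 in hypoxia without. In normoxia it had 10.81, 10.92 and 10.94 with TGF-β3, against 9.35, 9.03 and 9.07 without. The 6 treated arrays all lay above the 6 untreated ones, the lowest treated array at 10.79 and the highest untreated one at 9.40. ADAM19 rose by 1.76 ± 0.092, or 3.39-fold (adjusted p = 3.02e-06), with 1.79 in hypoxia (adjusted p = 0.00014) and 1.74 in normoxia (adjusted p = 0.000141). It was called in all 3 of these comparisons under every alternative tried, with an averaged change of 1.67 to 1.93. Donor 1 changed by 1.42, and donors 2 and 3 by 1.95 and 1.91. Hypoxia made a difference of -0.015 ± 0.092 (95% interval -0.22 to 0.19).

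ADAM9, a broadly expressed sheddase, had 11.76, 12.12 and 11.81 in hypoxia with TGF-β3, against 11.48, 11.62 and 11.61 in hypoxia without. In normoxia the signals were 11.97, 12.30 and 11.96 with TGF-β3, against 11.82, 11.83 and 11.67 without. Each donor was higher with TGF-β3 at both tensions, by 0.31 ± 0.086 on average (adjusted p = 0.0434, and 0.0109 with the donor block), although some arrays of the 2 sets overlapped. In fits without the block, leaving out any donor or any 1 of 10 arrays ended the call, with adjusted p from 0.0518 to 0.217. The call stood only without donor 1 in hypoxia with TGF-β3 or without donor 3 in normoxia with TGF-β3. ADAM32, its direct neighbour on chromosome 27, was below the first quartile on every array.

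ADAM15, the ADAM with an integrin-binding RGD motif in the human protein, had 7.41, 7.63 and 7.40 in hypoxia with TGF-β3, against 8.03, 8.36 and 8.17 in hypoxia without. The normoxic arrays gave 7.71, 7.73 and 7.13 with TGF-β3 and 7.87, 8.30 and 8.38 without. All 6 treated arrays lay below all 6 untreated ones. ADAM15 fell by 0.68 ± 0.13, or 1.61-fold (adjusted p = 0.00621), with -0.39, -0.65 and -1.01 in donors 1, 2 and 3. By tension it passed only with the donor block, with -0.71 in hypoxia (adjusted p = 0.0605, and 0.0312 with the block) and -0.66 in normoxia (adjusted p = 0.0841, and 0.0438 with the block). The averaged call was lost without donor 2 (-0.70, adjusted p = 0.0847) or donor 3 (-0.52, adjusted p = 0.0605).

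ADAM10 and ADAM17 are the main sheddases of Notch receptors, growth factor precursors and TNF. ADAM10 had 10.68, 10.51 and 10.43 in hypoxia with TGF-β3, against 10.74, 10.81 and 10.78 in hypoxia without. In normoxia it had 10.72, 10.59 and 10.49 with TGF-β3, against 11.06, 10.78 and 10.68 without. It was lower with TGF-β3 in every pair, by 0.24 ± 0.079 (adjusted p = 0.0867, and 0.0307 with the donor block). ADAM17 differed by -0.11 ± 0.057 (adjusted p = 0.305), and ADAM12, meltrin-α, by -0.033 ± 0.069 (adjusted p = 0.854; 95% interval -0.18 to 0.12). The remaining active members not called, ADAM8, ADAM33 and ADAM21, had changes of 0.16, -0.31 and -0.11.

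Genes for proteins that steer these sheddases or are cut by them were examined as lists. Of 9 iRhom, tetraspanin and related genes that guide ADAM17 and ADAM10, 1 rose and 2 fell with TGF-β3, and 1 and 4 with the donor block. Their median change was -0.22. Among all probe sets 4.65% rose and 4.99% fell, and 14.8% were called in either direction with the block. RHBDF1, an iRhom that escorts ADAM17 to the cell surface, fell by 0.59 ± 0.065 (adjusted p = 0.000263). RHBDF2, also an iRhom, was not called. Its means were 8.25 with TGF-β3 and 8.15 without in hypoxia, and 8.32 and 8.18 in normoxia. TSPAN15, a tetraspanin partner of ADAM10, fell by 0.82 ± 0.15 (adjusted p = 0.0066). TSPAN5, another tetraspanin partner of ADAM10, rose by 0.51 ± 0.098 (adjusted p = 0.00744). Leaving out donor 1 ended the calls of both tetraspanins, as did donor 3 for TSPAN15 and donor 2 for TSPAN5, with adjusted p up to 0.0698 for TSPAN15 and 0.189 for TSPAN5.

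Of 25 membrane proteins that ADAMs shed, 5 rose and 4 fell with TGF-β3, and 6 and 6 with the donor block. Their median change was -0.058. Over all probe sets 4.65% rose and 4.99% fell, and 14.8% were called in either direction with the block. NRG1, the neuregulin whose precursor ADAM19 cuts, had 5.82, 6.65 and 5.87 in hypoxia with TGF-β3, against 4.29, 4.14 and 3.90 in hypoxia without. In normoxia NRG1 had 6.52, 6.21 and 6.04 with TGF-β3, against 4.01, 4.37 and 3.98 without. All untreated arrays were below the first quartile and all treated ones above it, and the increase of 2.07 ± 0.15 (adjusted p = 2.24e-05) held under every alternative, as did that of TNFRSF1B, a TNF receptor, of 1.53 ± 0.19 (adjusted p = 0.000594). JAG1, a Notch ligand, fell by 1.18 ± 0.17 (adjusted p = 0.00136) and PDGFRB by 0.73 ± 0.093 (adjusted p = 0.000637), and both lost the call without donor 2 (adjusted p = 0.0565 for JAG1 and 0.0560 for PDGFRB). HBEGF, named after its values were seen, rose by 1.33 ± 0.21 (adjusted p = 0.00265), a call that ended without donor 1 (adjusted p = 0.0632).

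Some genes that hold the family in check or mature it fell with TGF-β3. Of 11 inhibitors and clearance receptors, 3 fell and none rose, with a median change of -0.22, where 4.99% of all probe sets fell and 4.65% rose. With the donor block 5 fell and 1 rose, beside 14.8% of all probe sets called in either direction. TIMP3, the matrix-bound inhibitor of aggrecanases and ADAM17, had 12.88, 12.76 and 12.64 in hypoxia with TGF-β3 and 13.32, 13.37 and 13.36 without. In normoxia TIMP3 had 13.02, 13.03 and 12.92 with TGF-β3 and 13.36, 13.39 and 13.40 without, so no treated array reached an untreated one. It fell by 0.49 ± 0.056 (adjusted p = 0.000331), a call that held under every alternative. TIMP1 fell by 0.41 ± 0.073 (adjusted p = 0.00508) and RECK, a membrane inhibitor of ADAM10, by 0.80 ± 0.17 (adjusted p = 0.0125), and both lost the call without donor 1 or 2 (adjusted p up to 0.0971 for TIMP1 and 0.0948 for RECK). The change of RECK was -1.51 in donor 3 against -0.48 and -0.41 in donors 1 and 2, and without donor 3 it was -0.45. Of 6 proprotein convertases, which cut the inhibitory propeptide off ADAM and ADAMTS enzymes, FURIN fell by 0.35 ± 0.096 (adjusted p = 0.0422) and PCSK7 by 0.28 ± 0.074 (adjusted p = 0.0347). Both calls were lost in many of the alternatives, with adjusted p from 0.00681 to 0.329 for FURIN and from 0.00411 to 0.209 for PCSK7.

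ADAMDEC1, a soluble ADAM-like protein known from human macrophages and gut stroma, had the largest difference between donors in the family. In donors 1 and 2 it had 5.74 and 5.89 in hypoxia with TGF-β3, against 3.48 and 3.61 in hypoxia without. The same donors had 6.27 and 6.24 in normoxia with TGF-β3 and 3.77 and 3.70 in normoxia without. In donor 3 the signals were 3.49 in hypoxia with TGF-β3, 3.45 in normoxia with TGF-β3, 3.41 in hypoxia without and 3.58 in normoxia without. Thus 4 of the 6 treated arrays lay above the first quartile, and both treated arrays of donor 3 stayed at the level of the untreated arrays. The changes with TGF-β3 were 2.25 and 2.28 in hypoxia and 2.50 and 2.55 in normoxia in donors 1 and 2. In donor 3 they were 0.082 in hypoxia and -0.13 in normoxia.

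The averaged change of ADAMDEC1 over all donors was 1.59 ± 0.52, with an adjusted p of 0.0828, and 0.0214 with the donor block. Without donor 3 it was 2.40 (adjusted p = 3.02e-05), and without donor 1 or donor 2 it was 1.19 and 1.18 (adjusted p = 0.454 and 0.472). A test of whether the TGF-β3 change differs between donors, added after these values were seen, gave F = 108 and an adjusted p of 0.0161, in a comparison in which 2 of 26773 probe sets were called (0.00747%). No other member passed that test, and the next were ADAMTSL1 (adjusted p = 0.0972) and ADAMTS9 (adjusted p = 0.120). None of the 9 haematopoietic markers was called with TGF-β3 averaged over oxygen and donors. Without the donor block that comparison did not call ADAMDEC1 either, so it cannot address a change seen in donors 1 and 2 only. The cause of the donor difference was not tested.

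**Figure D5:**
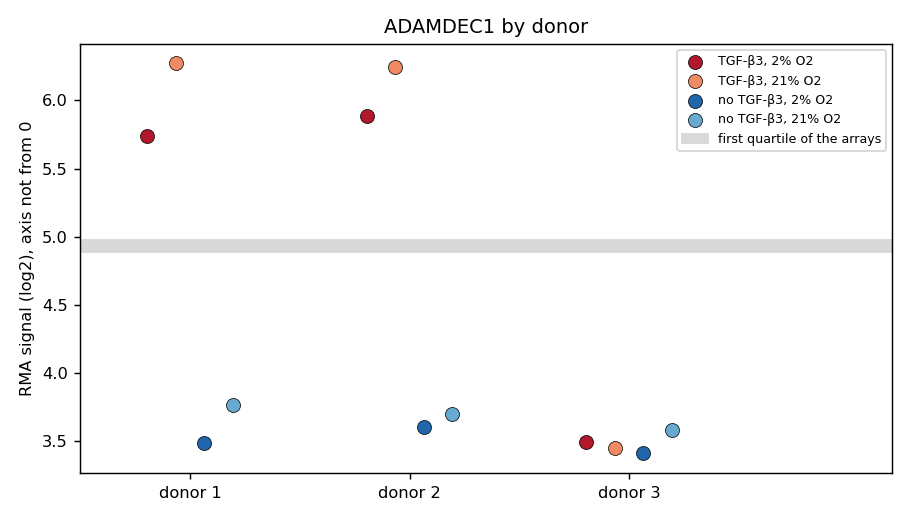
Signal of ADAMDEC1 (log2; the axis does not start at 0) on the 12 arrays by donor, coloured by group, with the range of the arrays' first quartiles as a grey band. The 4 arrays of donors 1 and 2 with TGF-β3 lie between 5.74 and 6.27, and the other 8 lie between 3.41 and 3.77.

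The ADAMs without a protease active site, and those of sperm, were not called in any comparison. ADAM11, a neuronal member with a signal between 5.98 and 6.34, differed by -0.061 ± 0.077 with TGF-β3 (adjusted p = 0.730) and by 0.024 ± 0.077 with hypoxia. The other 6 inactive members, and ADAM1B and ADAM3A, were below the first quartile on all 12 arrays. ADAM1B, a fertilin subunit in mouse, had 3.61 to 4.08 and differed by 0.074 ± 0.079 with TGF-β3. ADAM2, ADAM3A, ADAM18, ADAM32 and ADAM9 lie close together on chromosome 27, with at most 2 protein-coding genes between the pairs listed in the RefSeq order, and of these only ADAM9 was called.

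Hypoxia called no member of the family in any comparison. Without TGF-β3 limma called 0 of 42 genes (beside 0.00374% of all probe sets), with 3 at an unadjusted p under 0.05. These were ADAMTS12 at 0.39 ± 0.11 (adjusted p = 0.746), ADAMTS6 and ADAMTS2. The share of all probe sets at that unadjusted cut was not counted. ADAMTS12 had 6.18, 6.14 and 6.29 in hypoxia against 5.85, 5.73 and 5.86 in normoxia, 2 sets of 3 that did not overlap. The share of all probe sets with no overlap between these groups was not counted. With TGF-β3 the ADAMTS12 sets overlapped, at 6.32, 5.94 and 6.02 in hypoxia against 5.84, 5.90 and 6.09 in normoxia, and donor 3 was lower in hypoxia. With TGF-β3 none was called (beside 0% of all probe sets), and none had an unadjusted p under 0.05. The smallest p belonged to ADAMTSL1 at 0.39 ± 0.19, ADAMTS20 at -0.44 ± 0.22 and ADAM12 at 0.18 ± 0.097 (adjusted p = 0.9997 for each). Donor 2 in normoxia had 5.25 for ADAMTS20 where the other 5 arrays with TGF-β3 had 3.98 to 4.55, and without that array the difference was -0.14. The second probe set of ADAMTSL1 gave 0.21.

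Averaged over TGF-β3, limma again called 0 of 42 for hypoxia (beside 0.0486% of all probe sets). At an unadjusted p under 0.05 there were 8 members, 4 higher and 4 lower in hypoxia. The share of all probe sets at that unadjusted cut was not counted, so these 8 are not a result about the family. The smallest p belonged to ADAMTS12 (0.27), ADAMTS2 (-0.21) and ADAMTSL1 (0.36, adjusted p = 0.631), whose second probe set gave 0.15. With the donor block the family still had 0 calls, beside 0.0112% of all probe sets without TGF-β3, 0.0224% with TGF-β3 and 0.31% averaged. The 95% interval of the averaged hypoxia change lay within 1 log2 unit of 0 in 41 of 42 genes, the exception being ADAMDEC1, and the largest change in size was 0.43, that of ADAMTS6. Hypoxia response genes were read for comparison. CA9, a carbonic anhydrase known for its induction by low oxygen, had 8.28, 9.11 and 7.87 in hypoxia with TGF-β3, against 5.39, 6.11 and 5.96 in normoxia with it. Without TGF-β3 CA9 had 6.77, 7.43 and 5.43 in hypoxia, against 5.55, 5.38 and 5.07 in normoxia. The averaged CA9 difference was 1.90 ± 0.32 (adjusted p = 0.0742, and 0.0216 with the donor block), higher in hypoxia in all 3 donors. PDK1 was 0.71 ± 0.12 higher in hypoxia (adjusted p = 0.0807, and 0.0087 with the block), NDRG1 0.47 ± 0.11 (adjusted p = 0.260) and VEGFA 0.35 ± 0.082 (adjusted p = 0.288). These genes differed with TGF-β3 too, so they do not mark oxygen alone. With TGF-β3 averaged over oxygen VEGFA rose by 0.52 (adjusted p = 0.00251) and PDK1 by 0.46 (adjusted p = 0.0348). In hypoxia the mean of CA9 was 8.42 with TGF-β3 and 6.54 without. That of NDRG1 was lower with TGF-β3, at 11.12 against 11.35 in hypoxia and 10.59 against 10.94 in normoxia. Without the block none of the genes of the related lists was called for hypoxia, and with it CA9 and PDK1 were.

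The interaction of TGF-β3 and oxygen was called for 0 of 42 genes by limma (beside 0% of all probe sets), and none had an unadjusted p under 0.05. The smallest p belonged to ADAM21 (-0.26 ± 0.13), ADAMTS12 (-0.24 ± 0.16) and ADAM29 (0.22 ± 0.15), each with an adjusted p of 0.9999. On leaving out arrays or donors the interaction ranged from -0.43 to -0.11 in ADAMTS12 and from 0.057 to 0.33 in ADAM29. The 95% interval of the interaction lay within 1 log2 unit of 0 in 40 genes, all but ADAMDEC1 and ADAMTS6.

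Across single arrays, 6 of the 42 genes (14.3%) had all 6 arrays with TGF-β3 on one side of all 6 without it: ADAM19, ADAMTS6 and ADAMTS7 above, and ADAM15, ADAMTSL1 and ADAMTSL4 below. The same held for 6.53% of all probe sets. For oxygen it held for no member, and for 0.381% of all probe sets. The spread between donors was larger than that between conditions, taken as the range of means, in 14 of the 42 genes (33.3%), beside 34.9% of all probe sets.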

How the data were processed

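Total RNA of bovine bone marrow mesenchymal stem cells, 3 donors in each of 4 conditions, was measured on 12 Affymetrix whole-transcript arrays. The deposited values were log2 signals on all 26773 probe sets, normalised by the authors with robust multi-array averaging (RMA) per the labels, with Partek 6.6 named in the submitters' processing notes; the log2 scale was read from their range. Filters, library version and statistical test were not given in the sources used here. Values were used as deposited.

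Names came from the platform annotation: 18550 probe sets had 1 symbol, 595 several and 7628 none here. RefSeq (ARS-UCD2.0) served for gene order only. The family, its roles and the lists of related genes were chosen with earlier results of these data known. Named in the text are the aggrecanases, every called member, the member with the highest mean per role, the 3 smallest p where none was called, and up to 4 called genes per related list. Some genes outside these rules are named too, among them VCAN, RHBDF2, check genes of the treatments and single cell type markers. ACAN, CA9, HBEGF and PECAM1 were added after their values were seen.

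The test was limma (version 3.58.1 in R 4.3.3; lmFit, contrasts.fit, eBayes) on group alone (8 residual and 3.14 prior degrees of freedom) and Benjamini-Hochberg adjustment over all probe sets; errors are standard errors of the difference. The code was tested on simulated data. Donor numbers in the titles mark the same animal, so the samples are paired. Deviations from group means correlated at 0.18 to 0.60 in the 18 pairs of the same donor and at -0.44 to 0.10 in the 36 of different donors. The deviations of a group cancel out by construction. Positive correlations within donors thus push those between donors down, and the ranges are not independent. Alternatives were the replicate block, a random donor block, other scalings, a filter on low signals, an intensity trend, fewer groups, 1 probe set per gene and leaving out each array or donor. The fits that left out arrays or donors had no donor block.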

Additional observations from a re-analysis of the deposited data

Results flagged for a closer look

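The TGF-β3 change of ADAMDEC1 differed between donors (adjusted p = 0.0161 in limma's F test of the donor-by-TGF-β3 term, a test added after the values were seen). In hypoxia the gene changed by 2.25 in donor 1, 2.28 in donor 2 and 0.082 in donor 3. In normoxia it changed by 2.50 in donor 1, 2.55 in donor 2 and -0.13 in donor 3. The adjusted p was at most 0.0234 under the 4 alternatives run for this test. These were other scalings, an intensity trend and 1 probe set per gene, and none left out an array or donor.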

How the results depend on the processing

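The number of members called for TGF-β3 averaged over oxygen was 10, 14 with the replicate block and 4 to 10 when single arrays or donors were left out; it fell to 6 without donor 3 of the untreated normoxic arrays and to 4 without donor 1 or donor 2. In normoxia 4 were called, 6 with the replicate block and 1 to 5 on leaving out arrays or donors. In hypoxia 3 were called, 6 with the replicate block and 1 to 5 on leaving out arrays or donors. The counts for hypoxia and for the interaction were 0 under every alternative run, the replicate block included. Of the changes of single genes followed under the alternatives, 1859 kept direction and side of the threshold, 170 lost the call, 47 gained one and 21 changed sign. The aggrecanases were followed in every oxygen and interaction comparison. Other members were followed there only if their p was among the 3 smallest, so sign changes of the rest could not appear. All sign changes were in oxygen or interaction values of aggrecanases, none of them called, on leaving out arrays or donors, and the cause was not tested. Over those alternatives the hypoxia change without TGF-β3 ranged from -0.29 to 0.024 in ADAMTS1 and from -0.50 to 0.028 in ADAMTS5, and with TGF-β3 from -0.26 to 0.10 in ADAMTS1 and from -0.34 to 0.064 in ADAMTS5. The interaction ranged from -0.14 to 0.26 in ADAMTS1, from -0.17 to 0.43 in ADAMTS5 and from -0.26 to 0.13 in ADAMTS4, and the averaged hypoxia change of ADAMTS1 from -0.19 to 0.037. A filter that kept the 13387 probe sets with the higher means left 18 members and could give no value for the others. There were 3 arrays per group, and many members had a low signal. Without the donor block the smallest averaged TGF-β3 change called in the family was 0.31 in size. With the block it was -0.24, that of ADAM10.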
